A study of Mus musculus with 9 samples.

Results

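The 8 transcription factors described here act in the identity or differentiation of the intestinal epithelium. They were read across 9 RNA-seq libraries of mouse intestinal cultures. Cdx1 and Cdx2 are caudal-type homeobox factors, Hnf4a and Hnf4g are nuclear receptors, Gata4 and Gata6 are zinc-finger GATA factors, and Klf4 and Klf5 are Krüppel-like factors. They were chosen by gene symbol, with earlier results of these data known, and all 8 were found among the 50600 genes of the deposited tables. All 8 reached at least 1 TPM (a level corrected for gene length and library depth) in every library, so each was among the 16208 genes tested.

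The cultures were organoids, small intestinal epithelium grown in a gel from wild-type C57BL/6 mice, and tumoroids, grown from intestinal tumours of Apc1638N/+ mice of a strain labelled MIX. Organoids came from 3 mice and were kept for 24 h in organoid medium (EGF, Noggin and R-spondin1) mixed with medium conditioned either by tumoroids (T-cM) or by wild-type organoids (WT-cM). Each medium has 3 libraries by the sample titles, and same-numbered libraries came from the same mouse. Title and treatment field of these 6 libraries contradict each other. The titles were followed, hence the names T-cM-titled organoids and WT-cM-titled organoids, and every direction between these groups turns around if the field is right instead. The 3 tumoroid lines, from 3 mice, were untreated and were grown with EGF and Noggin but without R-spondin. By the paper's methods their mice were older than those of the organoids, and the tumoroid titles give no culture time. Genotype, strain, age, medium, culture time and tumour origin therefore cannot be told apart in any tumoroid value. Whether a group contained fewer cells expressing a factor, or less of its RNA in each cell, cannot be told apart in bulk RNA.

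In the developing gut CDX factors set posterior, intestinal fate, and in the adult they switch on genes of the absorptive and secretory lineages. HNF4A and HNF4G bind largely the same DNA sites and drive genes of the enterocyte brush border and of lipid uptake. GATA4 marks the proximal intestine, where it holds jejunal genes on and ileal bile acid transport genes off, whereas GATA6 is expressed along the whole intestine. KLF5 is found mainly in dividing crypt cells and KLF4 mainly in differentiated and goblet cells.

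Depth ranged from 16541635 to 25170966 counts per library. The summed TPM of 6 markers of simple epithelium was 9960 to 14300 in the organoids and 12200, 12600 and 13900 in tumoroids 1, 2 and 3, the highest being Krt8. The summed TPM of 7 markers of small intestinal epithelium was 18800 to 45400 in the organoids and 1150, 825 and 1380 in the tumoroids, with Fabp1 the highest of them in organoids. The stem cell marker Lgr5 was the 1 of these 7 that rose (0.03 to 0.45 TPM in organoids, 21.3, 15.5 and 36.8 in tumoroids). Markers of other cells were low. The 7 fibroblast markers summed to at most 0.53 TPM in organoids and 1.5 in tumoroids, the 4 endothelial markers to at most 0.73 and 3.06, and the 4 neural and glial markers to at most 0.24 and 1.3. The 4 smooth muscle markers summed to at most 1.24 TPM in organoids and to 7.62, 3.93 and 92.6 in the tumoroids, almost all from Acta2, since Myh11 and Des were at or near 0 and Cnn1 had no count. The 6 immune markers summed to at most 2.15 TPM in organoids and to 2, 16.1 and 3.56 in the tumoroids, almost all from Csf1r, with Cd3e at 0. The 6 stomach markers summed to 1.22 to 1.62 TPM in the organoids and to 8.19, 4.75 and 6.38 in the tumoroids, with the mucin Muc5ac at 5.35, 0.67 and 3.24 in the tumoroids and at 0 in every organoid. The part of these signals in the values of the 8 factors was not tested.

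Promoter stretches of 3 of the factors and of 4 genes known as their intestinal targets are shown so that the letters these factors are known to favour can be seen beside the expression values below. Each stretch is the 250 bases before a RefSeq gene start on GRCm38.p6, printed 5′ to 3′ on the gene's strand. Capitals mark letters matching any of 4 short motifs on either strand, which are TTTATNG for CDX factors, CAAAGNNCA for HNF4 factors, GATAA for GATA factors and CCCCNCCC for KLF factors. Overlapping matches run together. Hnf4a has 2 starts, the first far upstream of the second. Stretches of Cdx1, Gata6, Hnf4g, Gata4 and Klf5 were not used here. The 4 target genes are shown because they hold such letters, so they do not stand for the target lists. CDX letters were in 1 of the 4 promoters matched for CDX targets, HNF4 letters in 3 of 6 for HNF4 targets and GATA letters in 3 of 4 for GATA4 targets, and the stretches of Apoa1, Mttp, Npc1l1, Fabp6 and Isx held none of the 4 motifs.
Cdx2, chr5:147307250-147307499, minus strand: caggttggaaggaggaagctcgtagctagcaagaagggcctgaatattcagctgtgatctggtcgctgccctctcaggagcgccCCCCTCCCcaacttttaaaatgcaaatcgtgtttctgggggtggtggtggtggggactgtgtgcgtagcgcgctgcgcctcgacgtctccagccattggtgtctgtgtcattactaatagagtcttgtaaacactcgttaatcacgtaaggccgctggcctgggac
Hnf4a start 1, chr2:163506607-163506856, plus strand: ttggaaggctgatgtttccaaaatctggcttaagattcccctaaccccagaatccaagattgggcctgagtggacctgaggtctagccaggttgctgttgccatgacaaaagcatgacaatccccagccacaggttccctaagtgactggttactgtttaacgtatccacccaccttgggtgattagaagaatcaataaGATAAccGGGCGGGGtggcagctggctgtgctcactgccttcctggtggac
Hnf4a start 2, chr2:163546905-163547154, plus strand: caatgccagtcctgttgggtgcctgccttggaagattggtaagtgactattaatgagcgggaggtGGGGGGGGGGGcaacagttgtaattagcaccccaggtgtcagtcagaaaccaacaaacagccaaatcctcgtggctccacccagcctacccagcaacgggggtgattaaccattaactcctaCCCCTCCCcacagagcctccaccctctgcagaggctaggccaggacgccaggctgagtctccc
Klf4, chr4:55532476-55532725, minus strand: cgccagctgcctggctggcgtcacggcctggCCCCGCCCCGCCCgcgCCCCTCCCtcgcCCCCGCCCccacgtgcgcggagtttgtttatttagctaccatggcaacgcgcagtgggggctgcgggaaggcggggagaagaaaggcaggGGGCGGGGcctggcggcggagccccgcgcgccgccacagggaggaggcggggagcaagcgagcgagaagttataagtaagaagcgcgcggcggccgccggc
Sis, chr3:72967864-72968113, minus strand: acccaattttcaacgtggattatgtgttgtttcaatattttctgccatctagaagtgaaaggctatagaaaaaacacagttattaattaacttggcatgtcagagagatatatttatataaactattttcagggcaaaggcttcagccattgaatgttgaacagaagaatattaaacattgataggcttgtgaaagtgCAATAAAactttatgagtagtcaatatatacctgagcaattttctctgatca
Fabp2, chr3:122894822-122895071, plus strand: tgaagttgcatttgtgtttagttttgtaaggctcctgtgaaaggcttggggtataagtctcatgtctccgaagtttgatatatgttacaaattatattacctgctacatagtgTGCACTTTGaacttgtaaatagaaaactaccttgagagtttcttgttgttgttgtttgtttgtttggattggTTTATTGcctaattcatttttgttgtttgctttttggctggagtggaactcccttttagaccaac
Fabp1, chr6:71199629-71199878, plus strand: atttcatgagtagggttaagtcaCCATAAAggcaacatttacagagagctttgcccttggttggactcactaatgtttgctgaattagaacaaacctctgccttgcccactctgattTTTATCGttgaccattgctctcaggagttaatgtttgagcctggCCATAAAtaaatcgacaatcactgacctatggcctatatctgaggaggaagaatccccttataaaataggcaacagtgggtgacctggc
Lct, chr1:128328319-128328568, minus strand: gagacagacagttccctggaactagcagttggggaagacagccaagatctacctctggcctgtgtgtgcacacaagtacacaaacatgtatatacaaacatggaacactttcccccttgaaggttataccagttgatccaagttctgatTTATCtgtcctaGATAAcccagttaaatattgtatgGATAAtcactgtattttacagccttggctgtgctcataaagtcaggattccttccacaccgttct

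All 4 stretches from the factors themselves held KLF letters, with 5 matches each in Klf4 and in the second Hnf4a start, where 4 of them overlap in 1 run of G, and KLF letters were in 31% of the 32544 promoters of the same length. Neither CDX nor HNF4 letters occurred in these 4 stretches, and the first Hnf4a start held 1 GATA match. CDX letters were found in 9.74% of all promoters, HNF4 letters in 5.51% and GATA letters in 22.5%. The target genes differed in what they held. Sis, the brush border enzyme sucrase-isomaltase, had 1 CDX match 52 bases before its start. Fabp2, an intestinal fatty acid-binding protein, had an HNF4 match at 137 bases and a CDX match at 65 bases before the start. Fabp1, the related liver-type protein, had 3 CDX matches, one of them overlapping a GATA match at 132 bases, and Lct, the milk sugar enzyme lactase, had 3 GATA matches within 101 bases of the start. A match is a description of letters and not of a bound site.

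**Figure D1:**
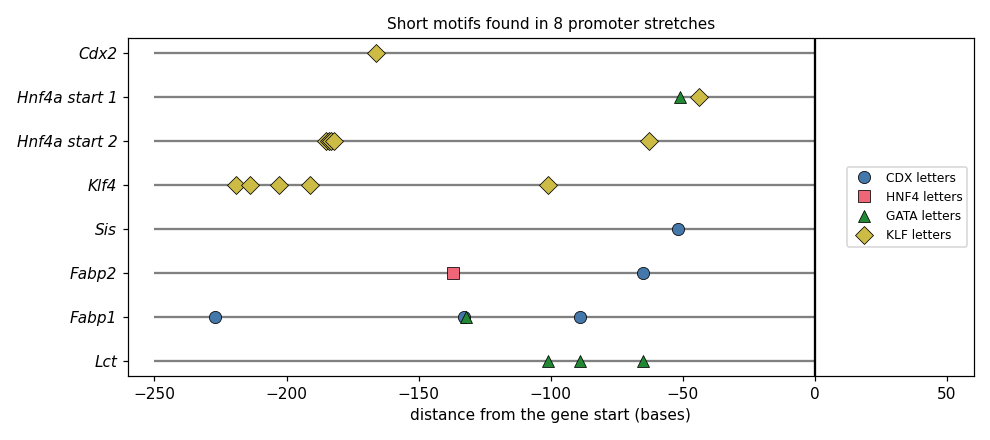
Position of CDX, HNF4, GATA and KLF letters (symbols) along the 250 bases before the gene start (x axis, bases; the start is at 0) in the 8 promoter stretches. KLF letters lie in the 4 stretches of the factors, and CDX, HNF4 or GATA letters in the 4 stretches of target genes.

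The first comparison set the 3 tumoroids against the 6 organoid libraries. Of the 8 factors, 5 fell and 1 rose in tumoroids at an adjusted p under 0.05 (edgeR quasi-likelihood test, Benjamini-Hochberg over all genes tested) and an absolute log2 fold change above 1. Hnf4g had the largest change of the 8 and was 25-fold lower, Gata4, Cdx1, Gata6 and Hnf4a were 2.24- to 3.53-fold lower, and Klf4 was 2.12-fold higher. Cdx2 and Klf5 did not pass. Among all genes tested 12.1% were called lower and 21% higher by the same rule, and at the adjusted p alone, which gave the same 5 and 1 factors, 20.8% were lower and 29.6% higher. Of the 12855 tested genes with at least 1 TPM in both kinds of culture, as the 8 factors had, 12.2% were called lower and 13.6% higher. At the adjusted p alone 24.4% of these were higher. The median log2 fold change was -1.23 over the 8 factors and 0.17 over all genes tested. Levels below are CPM (counts scaled to library size, with TMM factors), which compare one gene between libraries.

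**Figure D2:**
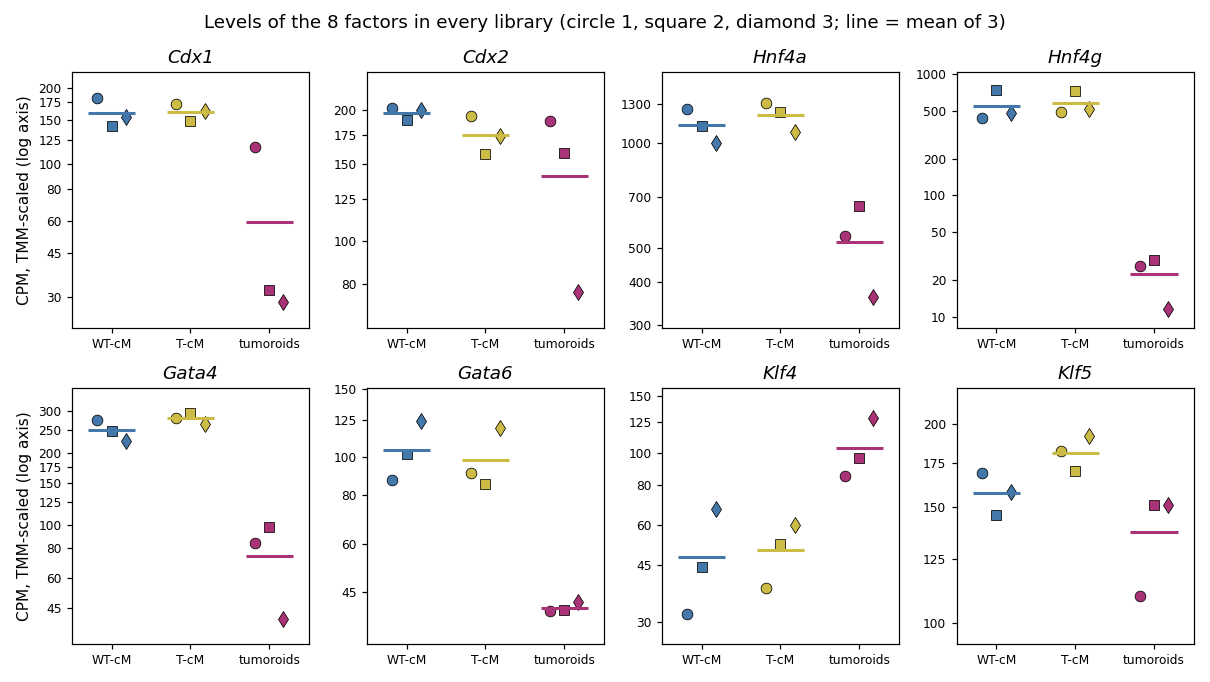
CPM (y axis, logarithmic and with its own range for each gene) of the 8 factors in WT-cM-titled organoids, T-cM-titled organoids and tumoroids; each point is 1 library and the line is the mean of 3. The tumoroids lie apart from all organoids except for Cdx2 and Klf5, and tumoroid 3 is the lowest library for Cdx1, Cdx2, Hnf4a, Hnf4g and Gata4.

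Hnf4g, on chromosome 3 from 3508030 to 3658052 on the plus strand of GRCm38, was at 488, 724 and 514 CPM in T-cM-titled organoids 1, 2 and 3 and at 432, 740 and 479 CPM in the WT-cM-titled ones. It was at 26.4, 29.4 and 11.5 CPM in tumoroids 1, 2 and 3. The groups did not come near each other, and the highest tumoroid was far below the lowest organoid. This is a log2 fold change of -4.65 (SE 0.39, adjusted p = 1.3e-05 by edgeR).

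Hnf4a, its close relative on chromosome 2 (163506808 to 163572910, plus strand), was at 1310, 1230 and 1080 CPM in T-cM-titled organoids, at 1260, 1120 and 1000 in WT-cM-titled organoids and at 540, 661 and 362 in tumoroids. Every tumoroid was below every organoid, and tumoroid 3 was lowest, with a log2 fold change of -1.16 (SE 0.21, adjusted p = 0.0013 by edgeR). Without tumoroid 3 it was -0.97 and with deposited TPM -0.68, both under the fold threshold with adjusted p of 0.002 and 0.019. An antisense gene, Hnf4aos, overlaps Hnf4a on the minus strand (chromosome 2, 163493807 to 163541720). It had 54 to 133 counts in organoids and 2, 3 and 1 in tumoroids, which is few beside at least 10552 counts for Hnf4a. Because the strand setting of the counting is not given in the sources used here, the reads of the pair may not be fully separated.

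Gata4 (chromosome 14, 63198922 to 63271692, minus strand) was at 278, 293 and 263 CPM in T-cM-titled organoids, at 273, 246 and 224 in WT-cM-titled organoids and at 84, 98.5 and 40.6 in tumoroids. All tumoroids were below all organoids, and the log2 fold change was -1.82 (SE 0.26, adjusted p = 0.00031 by edgeR). Gata6 was at 91.1, 85.2 and 119 CPM in T-cM-titled organoids, at 87.5, 102 and 124 in WT-cM-titled organoids and at 40.3, 40.5 and 42.4 in tumoroids. The tumoroids were nearly alike in Gata6, with a coefficient of variation of 2.85% against 40.5% for Gata4. The log2 fold change of Gata6 was -1.30 (SE 0.16, adjusted p = 0.00011 by edgeR), and with deposited TPM it was -0.75, under the fold threshold. The antisense transcript 1010001N08Rik overlaps the 5′ end of Gata6 and was 4.21-fold lower in tumoroids (adjusted p = 0.00028 by edgeR), with 57 to 99 counts there and 145 to 368 in organoids. Gata6 itself had 890 to 1235 counts in tumoroids, and the reads of this pair may not be fully separated either.

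Cdx1 was at 173, 148 and 162 CPM in T-cM-titled organoids, at 183, 142 and 154 in WT-cM-titled organoids and at 117, 32.1 and 28.8 in tumoroids. Tumoroid 1 lay just under the organoid range and tumoroids 2 and 3 far below it, a 4.05-fold difference between the highest and lowest tumoroid. The log2 fold change was -1.44 (SE 0.42, adjusted p = 0.017 by edgeR). It was -2.40 without tumoroid 1. Without organoid pair 1, 2 or 3 it was -1.40, -1.51 and -1.45, with an adjusted p of 0.053, 0.05 and 0.055 by edgeR. The call is thus lost when any organoid pair is left out, at a fold change of similar size. Cdx2 (chromosome 5, 147300805 to 147307270, minus strand) was at 193, 158 and 174 CPM in T-cM-titled organoids, at 202, 189 and 199 in WT-cM-titled organoids and at 188, 159 and 76.7 in tumoroids. Tumoroids 1 and 2 were within the organoid range and tumoroid 3 was below it. The log2 fold change was -0.39 (95% confidence interval -0.93 to 0.15, adjusted p = 0.21 by edgeR), and with deposited TPM it was 0.04. Single tumoroids moved it, to -0.11 without tumoroid 3 and to -0.65 without tumoroid 1 (adjusted p = 0.54 and 0.06 by edgeR).

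Klf4 (chromosome 4, 55527143 to 55532466, minus strand) was at 38.2, 52.5 and 60 CPM in T-cM-titled organoids, at 31.7, 44.4 and 67.4 in WT-cM-titled organoids and at 85.1, 97 and 129 in tumoroids. Every tumoroid was above every organoid, with a log2 fold change of 1.08 (SE 0.24, adjusted p = 0.004 by edgeR). Without tumoroid 3 it was 0.88 and without organoid pair 1 it was 0.84, both under the fold threshold. Klf5 (chromosome 14, 99298691 to 99315036, plus strand) was at 182, 170 and 192 CPM in T-cM-titled organoids, at 169, 146 and 158 in WT-cM-titled organoids and at 110, 151 and 151 in tumoroids. Tumoroids 2 and 3 were within the organoid range, and the log2 fold change was -0.30 (95% confidence interval -0.60 to 0.002, adjusted p = 0.09 by edgeR), and with deposited TPM it was 0.21. It was -0.17 without tumoroid 1, and -0.36 with DESeq2 and with RLE factors in edgeR, where the adjusted p was 0.02 and 0.046 and the fold threshold was still not reached.

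In CPM the groups did not overlap for 5 factors that were lower and 1 that was higher, against 20.2% and 25.6% of all genes tested. In deposited TPM Cdx1 and Hnf4a did overlap, with the highest tumoroid at 218 and 511 TPM and the lowest organoid at 194 and 474. Against the WT-cM-titled and then the T-cM-titled libraries taken alone, which share the tumoroid libraries, the log2 fold changes were -4.61 and -4.68 for Hnf4g, -1.74 and -1.90 for Gata4, -1.43 and -1.45 for Cdx1, and 1.12 and 1.05 for Klf4. The same 6 factors passed the rule against either group.

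**Figure D3:**
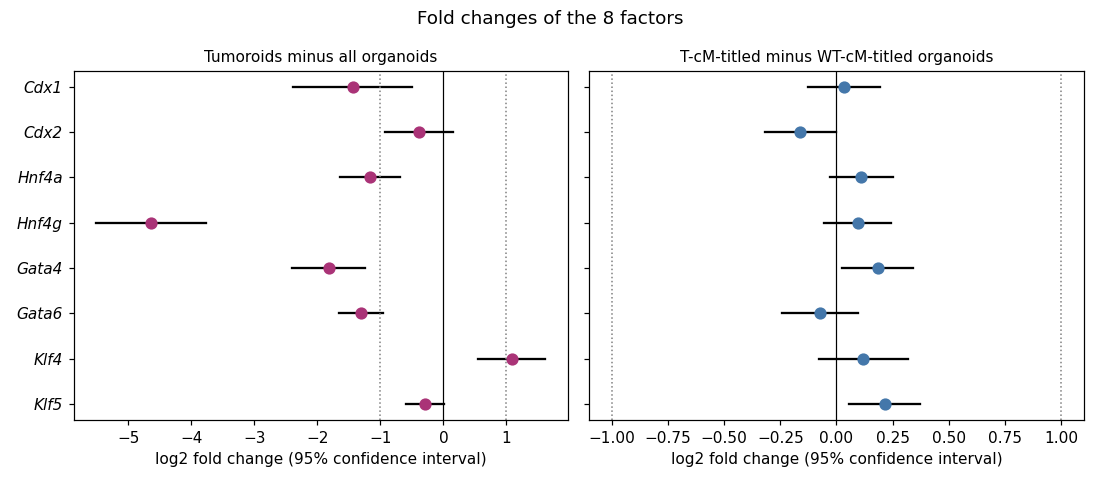
Log2 fold change (x axis) with its 95% confidence interval for the 8 factors, for tumoroids minus all organoids (left) and T-cM-titled minus WT-cM-titled organoids (right, on a narrower axis); dotted lines mark 1 and -1. Hnf4g is at -4.65 on the left, and every point on the right lies between -0.16 and 0.22.

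Read per length, the order of the factors differed between cultures. In organoids Hnf4a had the highest mean level at 596 ± 89.8 TPM (SD, n = 6 libraries of 3 mice), followed by Hnf4g at 524 ± 120, Klf5 at 242 ± 29, Cdx1 at 226 ± 32.3, Cdx2 at 202 ± 22.9, Gata4 at 166 ± 22, Gata6 at 77.5 ± 9.4 and Klf4 at 39 ± 9.01. Hnf4a and Hnf4g overlapped in range, as did Klf5, Cdx1 and Cdx2, and Cdx2 with Gata4, whereas Gata6 and Klf4 each stood apart. In tumoroids Hnf4a was again highest at 382 ± 122 TPM (SD, n = 3), then Klf5 at 284 ± 63.8, Cdx2 at 219 ± 84.6, Klf4 at 121 ± 30.3, Cdx1 at 115 ± 89.4, Gata4 at 67.3 ± 28.6, Gata6 at 45.4 ± 3.5 and Hnf4g at 30.1 ± 13.3. Neighbours in that order overlapped in range. Hnf4g thus moved from rank 304 to rank 5603 among the 16208 genes tested, ordered by mean TPM, whereas Hnf4a moved from 272 to 334.

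The ratio of 2 related factors within a library does not depend on depth, and the balance of the HNF4 pair moved most. Hnf4a made up 59.4%, 48.1% and 53.3% of the summed Hnf4a and Hnf4g TPM in T-cM-titled organoids 1, 2 and 3, and 61.5%, 45.2% and 53.3% in WT-cM-titled ones. It made up 91.8%, 92.4% and 94.5% in the tumoroids. The count ratio of Hnf4a to Hnf4g was 11.5-fold higher in tumoroids, a log2 difference of 3.52 (log2 ratio 4.60 ± 0.33 against 1.08 ± 0.40, SD, n = 3 tumoroids and 3 organoid lines; exact two-sided permutation p = 0.1, adjusted over the 4 ratios 0.133). With 3 values against 3, 0.1 is the smallest p this test can give, and it was reached by the HNF4, CDX and KLF pairs.

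Klf4 rose against Klf5 in share, from 9.58% to 19.4% of the pair's TPM in organoids to 30.3%, 26.7% and 32.6% in tumoroids, and its count ratio to Klf5 was 2.67-fold higher there. Cdx1 made up 49.2% to 54.9% of the CDX pair in organoids and 44.4%, 20.7% and 32.7% in tumoroids, a count ratio 2.39-fold lower. Gata4 made up 59.6% to 73.8% of the GATA pair in organoids and 63%, 66.6% and 43.9% in tumoroids, where the first 2 tumoroids were within the organoid range (log2 difference of the ratio -0.62, exact two-sided permutation p = 0.3). That difference was -0.21 without tumoroid 3.

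**Figure D4:**
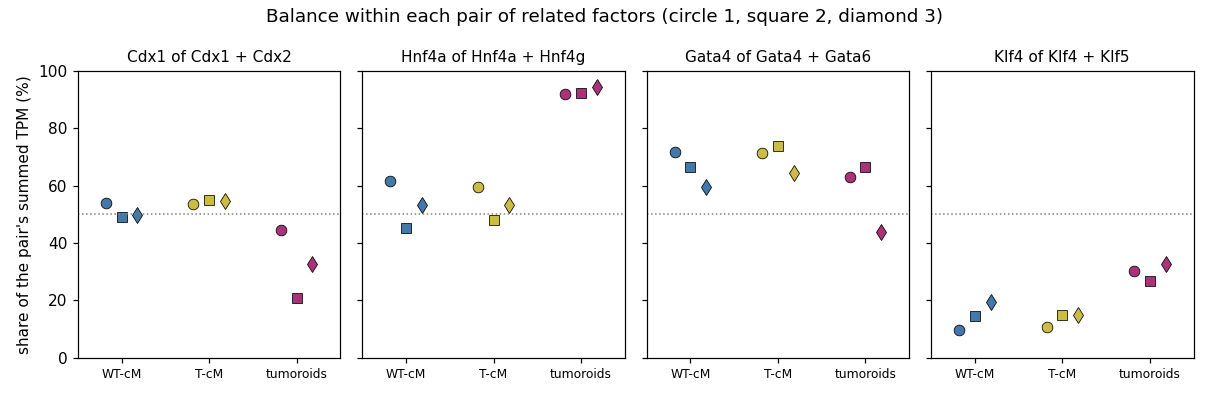
Share (y axis, percent) of the first factor in the summed TPM of each pair of related factors; each point is 1 library. Hnf4a makes up 45.2% to 61.5% of its pair in organoids and 91.8% to 94.5% in tumoroids.

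The second comparison set the T-cM-titled against the WT-cM-titled organoids within the 3 mice. None of the 8 factors was called by edgeR, with or without the fold threshold, where 1.13% and 10.5% of the 15797 genes with a test were called, and none was called by limma voom or DESeq2. At an unadjusted p under 0.05 there were 3, namely Klf5, Gata4 and Cdx2, where 22.6% of all genes with a test were at that level. The log2 fold changes of all 8 lay between -0.16 and 0.22, with a median absolute value of 0.12 against 0.19 for all genes tested. Klf5 was higher in the T-cM-titled library in 3 of 3 mice and its groups did not overlap, which was so for 5.25% of genes in this direction (log2 fold change 0.22, 95% confidence interval 0.06 to 0.37, adjusted p = 0.081 by edgeR). Gata4 was also higher in 3 of 3 mice (0.18, 0.03 to 0.34, adjusted p = 0.14 by edgeR), and Cdx2 was lower in 3 of 3 (-0.16, -0.32 to -0.003, adjusted p = 0.21 by edgeR). Without mouse 1 the adjusted p was 0.024 for Klf5 and 0.023 for Gata4 (edgeR), at log2 fold changes of 0.26 and 0.25. The 95% confidence intervals of all 8 lay within -0.32 and 0.37, so a doubling or halving at this time was outside them. The 4 count ratios of related factors differed by -0.09 to 0.26 on the log2 scale between the media (exact two-sided sign-flip permutation p = 0.5 to 1, where 0.25 is the smallest possible).

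Genes known as targets of these factors were then read from the same fits. No list is a test of binding, and the lists were chosen with earlier results of these data known. A gene that reached 1 TPM only in tumoroids, or only in organoids, had to differ to be tested at all, so such genes are given by their values and stay out of the counts and medians of the lists. Of the 12855 tested genes with at least 1 TPM in both kinds of culture, 12.2% were called lower and 13.6% higher in tumoroids, against which the list counts are read. Of 8 intestinal target genes of HNF4 factors 7 fell in tumoroids and none rose, with a median log2 fold change of -6.87. Fabp2 was at 1370 to 2610 CPM in organoids and at 6.44, 2.83 and 3.88 in tumoroids, 421-fold lower (adjusted p = 9.9e-07 by edgeR). Mttp, which loads fat onto lipoproteins, was 105-fold lower, and the apolipoprotein genes Apoa1 and Apoc3 were 369-fold and 131-fold lower. Between the media, Apoc3 was lower in 3 of 3 T-cM-titled libraries (log2 fold change -0.75, adjusted p = 5.7e-06 by edgeR) and Fabp2 in 2 of 3 (-0.56, 0.00032), whereas Apob, named after its values were seen, was higher in 3 of 3 (0.40, 0.00074), all under the fold threshold, while Hnf4a and Hnf4g did not pass.

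Of 7 intestinal target genes of CDX factors, 6 reached 1 TPM in both kinds of culture, and 5 of them fell in tumoroids while none rose. Sis was 473-fold lower (5690 to 11800 CPM in organoids, 27.9, 14.6 and 10.6 in tumoroids, adjusted p = 3.2e-06 by edgeR), whereas Gucy2c, the guanylin receptor, and Cdh17, an intestinal cadherin, were 3.77-fold and 3.78-fold lower and the goblet cell mucin Muc2 6.44-fold lower. The remaining gene, the intestinal homeobox gene Isx, named after its values were seen, reached 1 TPM only in tumoroids, with 0 to 0.133 CPM in organoids and 1.04, 1.23 and 3.4 in tumoroids. Heph, the iron oxidase hephaestin, did not pass in tumoroids (-0.82, adjusted p = 0.069 by edgeR) and was higher in 3 of 3 T-cM-titled libraries (0.34, 0.0028).

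Of 4 target genes of GATA4, only Fabp1 and Slc10a2 reached 1 TPM in both kinds of culture, and Fabp1 fell. It went from 3140 to 9970 CPM in organoids to 3.13, 6.25 and 1.31 in tumoroids. Lct, at 1 TPM or more only in organoids, was at 54.2 to 193 CPM there and at 0, 0.669 and 0.103 in tumoroids. Fabp6, the ileal bile acid-binding protein, was low throughout, at most 2.19 CPM in organoids and 0.0453 in tumoroids. Slc10a2, the ileal bile acid transporter, did not pass (4.89 to 26.8 CPM in organoids, 7.25, 14.6 and 28.9 in tumoroids). Between the media, Fabp1 was lower in 2 of 3 T-cM-titled libraries and Lct in 3 of 3 (log2 fold changes -0.61 and -0.48, adjusted p = 0.00014 and 0.00016 by edgeR). Of the 3 target genes of KLF4 and KLF5, the cell cycle gene Ccnd1 was 11.9-fold higher in tumoroids, the brush border enzyme Alpi was 36.5-fold lower, and the cell cycle inhibitor Cdkn1a did not pass (0.22, adjusted p = 0.37 by edgeR). Alpi was higher in 3 of 3 T-cM-titled libraries (0.75, adjusted p = 4.2e-08 by edgeR).

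**Figure D5:**
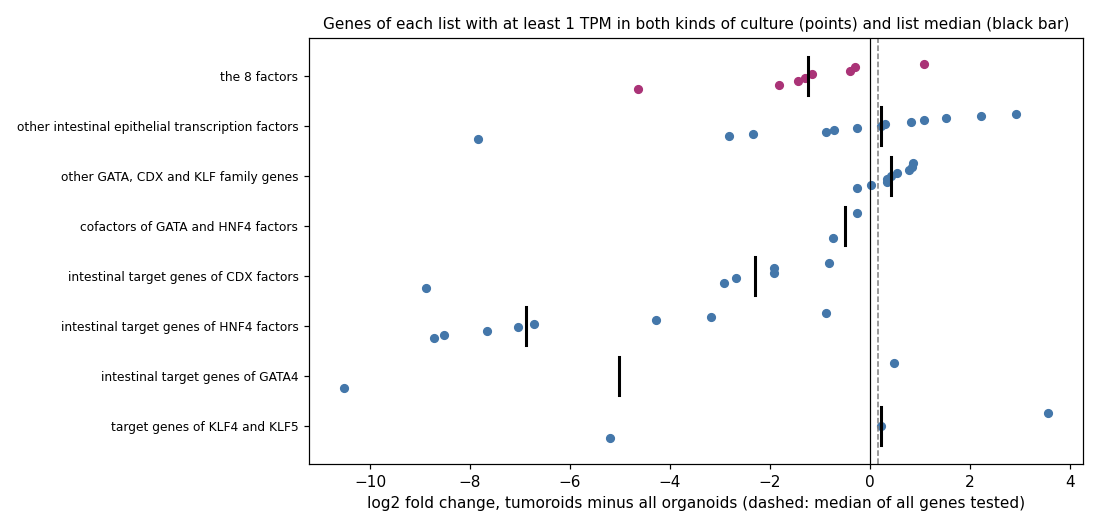
Log2 fold change in tumoroids minus all organoids (x axis) of each gene (points) of the 8 factors and 7 lists that reached 1 TPM in both kinds of culture; black bars are list medians and the dashed line is the median of all genes tested, 0.17. The HNF4 target list has a median of -6.87 and the 8 factors one of -1.23.

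Other transcription factors of the intestinal epithelium changed in both directions. Of the 13 that reached 1 TPM in both kinds of culture, 3 fell and 4 rose in tumoroids, with a median log2 fold change of 0.22. Creb3l3, a membrane-bound factor of lipid metabolism, was 228-fold lower (363 to 730 CPM in organoids, 1.45, 4.65 and 1.2 in tumoroids, adjusted p = 7.5e-06 by edgeR), the nuclear receptor Nr5a2 7.02-fold lower and the vitamin D receptor Vdr 5.02-fold lower, whereas the pioneer factor Foxa1 was 2.87-fold higher. Between the media, Maf (0.67, adjusted p = 0.00032 by edgeR) and Vdr (0.37, 0.0021) were higher in 3 of 3 T-cM-titled libraries. Of the 20 other GATA, CDX and KLF genes 11 were tested, and of the 9 that reached 1 TPM in both kinds of culture 4 were higher in tumoroids at the adjusted p alone and 5 differed at an unadjusted p under 0.05, none of them beyond the fold threshold (edgeR). Among all genes with 1 TPM in both kinds of culture, 24.4% were higher at the adjusted p and 53.7% differed at the unadjusted p. Between the media, Klf13 (log2 fold change 0.37, adjusted p = 0.012 by edgeR) and Klf6 (0.28, 0.025) were higher in 3 of 3 T-cM-titled libraries, under the fold threshold. Reaching 1 TPM only in tumoroids were Klf15, at 4.02 to 13.3 CPM in tumoroids and at most 1.02 in organoids, and Klf2, at 1.38 to 2.18 and at most 0.264. Gata5 was 1.82-fold higher (31.3 to 44.8 CPM in organoids, 56.7, 70.7 and 71.5 in tumoroids, adjusted p = 0.00094 by edgeR) and Klf9 1.72-fold higher, both among those 4. Cdx4, Gata1 and Klf14 had no count in any library.

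Of the 4 cofactors 3 were tested. Nr0b2, a small repressor receptor, reached 1 TPM only in organoids (0.165 to 1.82 CPM in organoids, at most 0.0906 in tumoroids), Zfpm1, a GATA partner, was 1.67-fold lower (adjusted p = 0.0012 by edgeR) and under the fold threshold, and Ppargc1a, an HNF4 coactivator, did not pass. Between the media Ppargc1a was lower in 3 of 3 T-cM-titled libraries (log2 fold change -0.37, adjusted p = 0.028 by edgeR), under the fold threshold. Of 7 transcription factors of stomach and hindgut 5 were tested, 3 of which reached 1 TPM only in tumoroids. Of these, Sox21 was at 37.3, 40.7 and 152 CPM in tumoroids and at most 0.846 in organoids, and the foregut factor Sox2, with no count in any organoid, was at 0.634, 0.521 and 27.9 in tumoroids. The hindgut factor Hoxa13, also with no count in organoids, was at 1.63, 0.409 and 0.0343. Tumoroid 3 was the highest library for both SOX genes and the lowest for Cdx1, Cdx2, Hnf4a, Hnf4g and Gata4. A link between them was not tested.

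The genes whose pattern over the 9 libraries was nearest to each factor were found by the root mean square difference of mean-centred log2 CPM. For Gata4 the nearest was Cdh17, one of the CDX target genes above (difference 0.115, where the SD of Gata4 itself was 1.02), followed by Prkca (0.152). Nearest to Hnf4g were the amino acid transport subunit Slc3a1 (0.26) and the prolactin receptor Prlr (0.271), against an SD of 2.4. Nearest to Hnf4a were Cox20 and mt-Nd1 (0.13 and 0.143, SD 0.651), to Gata6 Chchd2 and 1700025G04Rik (0.105 and 0.108, SD 0.669), and Aldh1b1 was near Cdx1 (0.285, SD 1.04). Klf4 was nearest to Map1lc3a and Zfp560 (0.156 and 0.17, SD 0.658), Cdx2 to Dtwd2 and Stk40 (0.14 and 0.146, SD 0.435) and Klf5 to Sf3b1 and Cdc42bpb (0.0793 and 0.0803, SD 0.231). These distances carry no test.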

How the data were processed

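RNA-seq libraries were made from polyadenylated RNA with a stranded kit. According to the methods, the authors aligned reads to mm10 with STAR and counted them over genes of Gencode mouse release 13, and the strand setting is not given in the sources used here. The files deposited hold raw counts per gene, and TPM values per gene, which the authors scaled by gene length and depth. Positions come from Gencode release 21 (GRCm38) and promoter stretches from RefSeq. Groups were taken from sample titles.

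Counts were TMM-scaled and fitted with edgeR 4.0.16 (legacy quasi-likelihood test, R 4.3.3) over all genes with at least 1 TPM in at least 1 library. Tumoroids were compared with the mean of both organoid groups over 9 libraries. This fit had no mouse term, so organoid libraries of the same mouse counted as separate samples (consensus correlation 0.757). The organoid groups were compared with each other with the replicate number as a block, because same-numbered libraries came from one mouse (correlations of their deviations 0.546, 0.338 and 0.547). A call needed a log2 fold change beyond 1 in size and an adjusted p (Benjamini-Hochberg) under 0.05. Ratios of related factors were tested by exact permutation over samples. Alternatives were limma voom (3.58.1), DESeq2 (1.42.0), other scalings and filters, log2(TPM + 1) with limma, the fits with or without the block, and leaving out each replicate. Before use the procedure was run on simulated counts with 200 changed genes, and the outcome of that run is not reported here. The 8 factors and all gene lists were chosen with earlier results of these data known. Besides the 8 factors, the text names from each list up to 4 genes with the smallest p in tumoroids and up to 2 with the smallest p between media, the 2 nearest genes by pattern, overlapping genes and the highest marker of a list. Outside this rule lie Apob, Isx and a few genes named for a marker level, a lack of counts or a lack of motifs. A few genes that this rule would name are not reported here.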

Additional observations from a re-analysis of the deposited data

How the results depend on the processing

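In tumoroids against organoids the count of called factors stayed between 4 and 6 of 8 under all alternatives run: it was 4 with log2(TPM + 1), without tumoroid 3 (Hnf4a and Klf4 lost) and without organoid pair 1 (Cdx1 and Klf4 lost), and 5 without organoid pair 2 or 3 (Cdx1 lost). Hnf4g and Gata4 kept their call in all 17. Dropping the fold threshold raised the genes called from 5363 to 8165. On the TPM scale, where the median of all genes was 0.518 against 0.165 with TMM and 0.110 with RLE scaling, the log2 fold changes of Cdx2 and Klf5 turned to 0.037 and 0.210. Leaving out replicates gave 4597 to 5369 genes and 4 to 6 factors.

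Between the media no factor was called under any alternative. The replicate block mattered for the genes called, 179 with the block and 0 without it (904 at an unadjusted p under 0.05). The count was 89 with DESeq2, 0 with log2(TPM + 1) and limma (2834 unadjusted), 1655 without the fold threshold, and 1 to 388 when a mouse was left out (388 without mouse 1, 1 without mouse 2, 94 without mouse 3). Leaving out a mouse moved the log2 fold change of Gata6 between -0.145 and 0.002, that of Cdx1 between -0.005 and 0.086 and that of Klf4 between 0.038 and 0.259, and the log2 ratio difference between -0.061 and 0.085 for Hnf4a to Hnf4g, between -0.211 and 0.091 for Klf4 to Klf5, between 0.133 and 0.401 for Gata4 to Gata6 and between 0.131 and 0.302 for Cdx1 to Cdx2. With the organoid line as a replicate block in the tumoroid comparison (voom), 4724 genes and 6 factors were called, and the block changed no factor's call. The causes were not tested. With 3 samples a group, no ratio could pass a permutation test.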
